A study of Rattus norvegicus with 10 samples.

Results

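The livers of rats fed a diet rich in olive oil were compared with the livers of rats fed standard chow. The comparison takes 4 of the 10 arrays of the series, chosen by the diet named in each array's title: 2 from the olive oil diet and 2 from standard chow, with every probe set that is not a control. Male Wistar rats, an outbred laboratory strain, ate their diet for 12 weeks, and a piece of liver was frozen after an overnight fast. The olive oil diet supplied 42% of its energy as fat, and so did the diets with lard, coconut fat and fish oil, with 2 arrays each. The labels give no fat share for the chow, so the amount of fat, its type and the rest of the food cannot be told apart in this comparison, and the olive oil arrays were therefore also set against the mean of the lard and coconut fat arrays. No drug, transgene or mutation is named for any rat. The labels call each array a liver sample of a rat without saying that the 2 arrays of a diet come from different animals. The p-values given here therefore cover the spread among the arrays at hand, part of which may be technical.

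Olive oil is rich in oleic acid, a monounsaturated fatty acid, whereas the energy of chow comes largely from starch. The liver turns surplus carbohydrate into fatty acids by de novo lipogenesis, a pathway driven by insulin through the transcription factor Srebf1 and by glucose through Mlxipl. Fasting turns that pathway down, and turns up the burning of fatty acids and the breakdown of amino acids, whose carbon feeds glucose synthesis and whose nitrogen leaves as urea.

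RNA was measured on Affymetrix Rat 230 2.0 arrays, which read a gene with 1 or more probe sets. The values are MAS5 signals, a linear brightness that every array holds to a 2% trimmed mean of 100. The median signal was 31.9 and 30.6 on the olive oil arrays, against 29.1 on each chow array. The olive oil arrays correlated with each other at r = 0.934 and the chow arrays at r = 0.949, on the log2 scale across the 18625 probe sets tested. The mean r with arrays of other diets was 0.930 and 0.936 for the olive oil arrays, and 0.938 and 0.939 for the chow arrays. The second olive oil array thus agreed no less with other diets than with the first olive oil array. All 8 hepatocyte markers were bright on all 4 arrays, and their summed signal was 87335 and 73415 on the olive oil arrays, against 74391 and 76319 on the chow arrays. The summed signal of the 11 Kupffer cell and macrophage markers was 5407 and 4533 with olive oil, against 4852 and 5406 with chow, and that of the 6 adipocyte markers, of which 3 were bright enough to be tested, was 361 and 307 with olive oil, against 293 and 339 with chow. Of the 11 marker lists, the summed signals of 3 did not overlap between the diets. With 2 arrays in each diet, such separation is common without any difference, so the 3 are given as values only. The 7 bile duct markers summed to 1998 and 1689 with olive oil, against 2096 and 2368 with chow. The 5 of them that were tested all had a log2 fold change below 0, with a median of -0.32 and none at an unadjusted p under 0.05. Their median against the same chow arrays was also below 0 with lard (-0.44), coconut fat (-0.72) and fish oil (-0.21). With olive oil against the mean of lard and coconut fat it was 0.24. The T and NK cell markers summed to nearly equal signals, 280.3 and 279.8 with olive oil, against 279.6 and 276.9 with chow. Of the 5 neutrophil markers only 1 was bright enough to be tested, and the 5 summed to 193.0 and 88.8 with olive oil, against 78.7 and 85.7 with chow. The part of these markers in the results was not tested. In pieces of whole liver, fewer cells of a type and less RNA per cell cannot be told apart.

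Both ratios that serve as measures of RNA quality were higher on the olive oil arrays than on the chow arrays. The ratio of the 3' to the 5' probe set of Gapdh was 1.10 and 1.19 on the olive oil arrays, against 0.959 and 0.972 on the chow arrays, and the olive oil values were the highest of all 10 arrays. The same ratio of actin was 2.50 and 2.75 with olive oil, against 2.22 and 2.15 with chow, and the first fish oil array read 2.59. The part of these ratios in the results was not tested.

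Between olive oil and chow, 5 of the 18625 probe sets tested passed limma's test at a Benjamini-Hochberg adjusted p of 0.05, which is 0.0268% of them. Each of the 5 reads a different gene. Lower with olive oil were Gpt and Sds, which take the nitrogen off alanine and serine, Cyp3a9, a cytochrome P450 of the family that oxidises steroids and drugs, and Plcb3, a phospholipase C that relays signals of G protein-coupled receptors. Higher was Rprm, which encodes reprimo, a protein known for arresting the cell cycle. At an unadjusted p under 0.05 there were 810 probe sets higher and 751 lower.

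Gpt, alanine aminotransferase, had signals of 346.3 and 459.4 on the olive oil arrays, against 2003.5 and 1957.9 on the chow arrays. The groups lay far apart, and the arrays of each diet were close to each other. The log2 fold change was -2.30 (SE 0.19, limma adjusted p = 0.00156). On the other 6 arrays Gpt ranged between 689.6 and 1326.5, so both olive oil arrays lay below all 8 others. Sds, serine dehydratase, which makes pyruvate from serine, had 20.9 and 55.5 with olive oil, against 693.9 and 875.7 with chow. Its 2 olive oil arrays differed from each other, and both lay far below either chow array. The log2 fold change was -4.38 (SE 0.47, limma adjusted p = 0.00843). The lard arrays, at 80.7 and 40.9, overlapped the olive oil arrays for Sds, and the coconut fat and fish oil arrays lay between 129.6 and 296.5.

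Cyp3a9 had signals of 404.2 and 211.6 with olive oil, against 2454.3 and 2309.2 with chow. The log2 fold change was -3.01 (SE 0.26, limma adjusted p = 0.00173). Both olive oil arrays were again below all 8 others, the lowest of which was a lard array at 562.3. The lard, coconut fat and fish oil arrays, up to 1168.8, all lay below both chow arrays as well. Over the mean of lard and coconut fat, the log2 fold change of Cyp3a9 with olive oil was -1.20 and did not pass (limma adjusted p = 0.314). Plcb3 had 9.2 and 11.3 with olive oil, against 57.0 and 85.4 with chow. Both olive oil signals were under 12.8, the brightest that any probe set for the bacterial trp gene read, so Plcb3 was not above background there and its change has only a bound: at least 4.59-fold lower with olive oil (limma adjusted p = 0.0218). The lard, coconut fat and fish oil arrays ran from 58.1 to 91.1 for Plcb3 and overlapped the chow arrays. Rprm had 205.2 and 223.1 with olive oil, against 34.3 and 53.0 with chow, and the highest of the other 6 arrays, from fish oil, read 116.0. The log2 fold change of Rprm was 2.24 (SE 0.25, limma adjusted p = 0.00843).

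**Figure D1:**
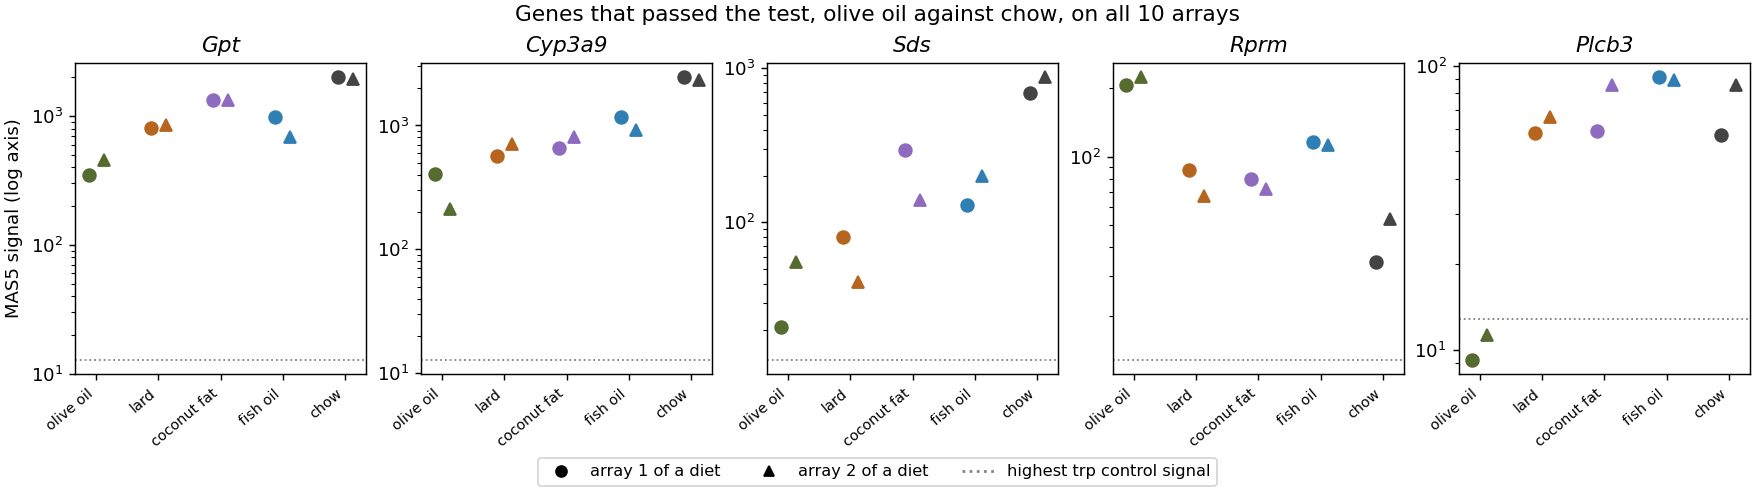
MAS5 signal (log axis) of the 5 genes that passed the test between olive oil and chow, on each of the 10 arrays, with the diets along the x axis; circles and triangles are the first and second array of a diet, and the dotted line at 12.8 is the brightest bacterial trp control. Gpt, Cyp3a9 and Plcb3 lay lower on both olive oil arrays than on all 8 others, Rprm lay higher, and Sds overlapped the lard arrays.

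How many genes passed depended on the settings. Gpt and Cyp3a9 passed in every alternative tried except limma without an intensity trend, where none did and each had an adjusted p of 0.0882. Without the first chow array 3 probe sets passed, and Sds, Rprm and Plcb3 each had an adjusted p of 0.0681; without the second chow array 23 passed and without the second olive oil array 19. When dim probe sets were ranked by the mean signal and not by the mean log2 value, 15 passed, 6 of them higher and 9 lower with olive oil.

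A further 11 probe sets had an adjusted p between 0.05 and 0.06 and did not pass. They include genes of inflammation, lipid control and amino acid metabolism, given here as values. Apart from Igfbp2, those named were picked among genes whose olive oil and chow arrays did not overlap, so their separation adds no evidence. Cd14, the co-receptor for bacterial lipopolysaccharide, had 237.4 and 427.6 with olive oil, against 1100.3 and 1044.6 with chow (log2 fold change -1.74, limma adjusted p = 0.0526). The coconut fat arrays, at 356.1 and 320.6, lay between the olive oil arrays for Cd14. The lard arrays read 422.4 and 579.1, and the fish oil arrays 1186.8 and 1284.8. Slpi, a secreted inhibitor of neutrophil proteases, had 151.7 and 289.3 with olive oil, against 6.5 and 2.6 with chow. Both chow arrays were below background for Slpi, so its ratio has a bound of at least 13.4-fold (limma adjusted p = 0.0526), and the coconut fat arrays, at 168.3 and 21.3, spanned most of that distance. The lard arrays, at 262.5 and 174.1, lay between the olive oil arrays for Slpi, and the fish oil arrays read 58.3 and 80.8. Efna1, a membrane-bound ligand of Eph receptors, had 681.1 and 664.9 with olive oil, against 284.3 and 242.3 with chow, and the other 6 arrays lay at 425.2 or lower (log2 fold change 1.35, limma adjusted p = 0.0526). A second probe set of Efna1 had 506.2 and 462.4 with olive oil, against 259.6 and 248.6 with chow (log2 fold change 0.92, limma adjusted p = 0.243).

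Insig2 encodes a protein that holds the precursor of Srebf1 in the endoplasmic reticulum. It had 2310.4 and 2193.1 with olive oil, against 4508.6 and 3711.9 with chow, and a second probe set read 2960.0 and 2542.8 with olive oil, against 4772.7 and 3874.9 with chow. The groups did not overlap on either probe set, and the log2 fold changes were -0.86 (limma adjusted p = 0.0526) and -0.65 (limma adjusted p = 0.202). Igfbp2, a binding protein of insulin-like growth factors, had 16.8 and 24.1 with olive oil, against 92.3 and 86.5 with chow (log2 fold change -1.99, limma adjusted p = 0.0526). Both olive oil arrays lay below all 8 others for Igfbp2 and for the first probe set of Insig2. On that Insig2 probe set the lard, coconut fat and fish oil arrays, from 2479.1 to 2847.0, were nearer to olive oil than to chow. Its log2 fold change with olive oil over the mean of lard and coconut fat was -0.20 (limma adjusted p = 0.834). Adh4, an alcohol dehydrogenase that also acts on retinol, had 315.8 and 247.7 with olive oil, against 930.9 and 734.2 with chow (log2 fold change -1.55, limma adjusted p = 0.0526). Both olive oil arrays lay below all 8 others for Adh4 as well. Rhob, a small GTPase of the cell skeleton, had 354.9 and 237.6 with olive oil, against 93.4 and 93.0 with chow (log2 fold change 1.61, limma adjusted p = 0.0526). For Rhob the lard arrays, at 175.5 and 215.4, and the coconut fat arrays, at 166.7 and 248.8, also lay above chow. The second coconut fat array read higher than the second olive oil array. Tsc22d1, a transcriptional regulator, had 2269.8 and 2317.1 with olive oil, against 613.4 and 866.8 with chow (log2 fold change 1.65, limma adjusted p = 0.0526), and the lard and coconut fat arrays, from 1830.0 to 3152.4, lay on both sides of the olive oil arrays. A second, dimmer probe set of Tsc22d1 had 62.2 and 102.4 with olive oil, against 80.7 and 59.9 with chow, where the groups overlapped (log2 fold change 0.19, limma adjusted p = 0.917).

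The gene lists below are read on each gene's brightest probe set. Of 10470 such genes, 4.26% were higher and 4.45% were lower with olive oil than with chow at an unadjusted p under 0.05, and the median log2 fold change of all of them was 0.003. No gene of the lists passed the adjusted test other than Gpt, Sds and Cyp3a9, so what follows are counts at the unadjusted p, set beside those 2 shares, with no test of a list. Whether the groups of a gene overlap is given only to describe its signals. With 2 arrays in each diet, many unchanged genes also separate, and their share among all genes was not counted. Among the 30 pathway lists the highest median was that of de novo lipogenesis, and the lowest were those of amino acid breakdown and xenobiotic metabolism.

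**Figure D2:**
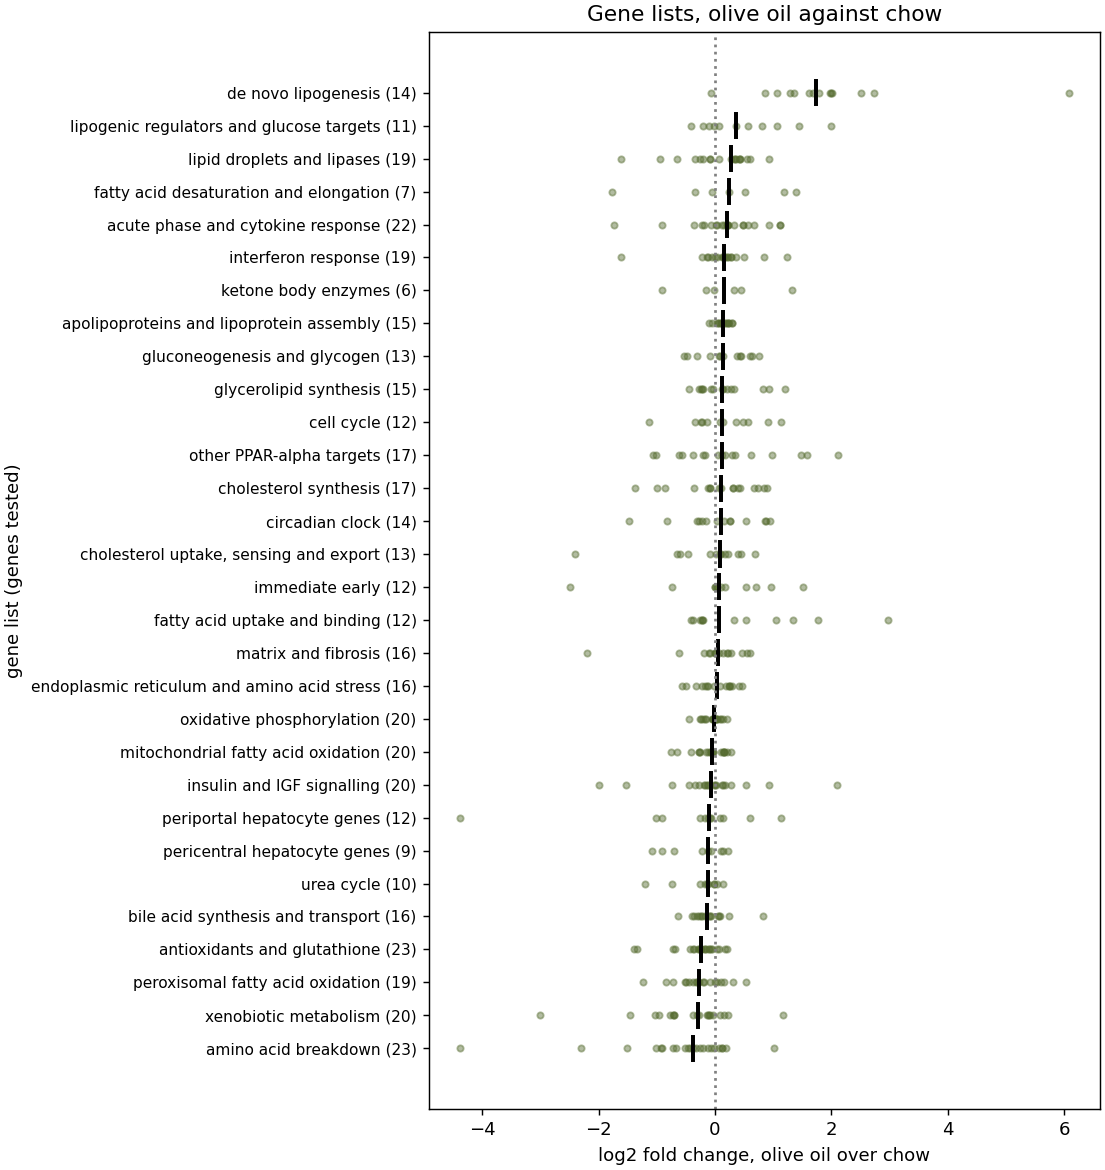
Log2 fold changes of olive oil over chow (x axis) for the genes of 30 pathway lists (rows, with the number of genes tested in parentheses); each point is 1 gene, the black bar is the median of the list and the dotted line is the median of all genes, 0.003. De novo lipogenesis had a median of 1.74 and amino acid breakdown one of -0.38.

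Of 14 genes of de novo lipogenesis tested, 13 had a fold change above 0 and 11 had an unadjusted p under 0.05 in the same direction, with 0 lower. The median log2 fold change was 1.74. For the same genes it was 0.63 with lard, 0.77 with coconut fat and 0.11 with fish oil, each against the same 2 chow arrays. For 6 of the 14 genes, Scd, Slc25a1, Mid1ip1, Pgd, Acaca and Acacb, both olive oil arrays lay above all 8 others, which held for 3.37% of all genes.

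Acly, which splits citrate into the acetyl-CoA used for fat, had 1637.8 and 4488.3 with olive oil, against 505.0 and 1388.0 with chow (log2 fold change 1.69, limma adjusted p = 0.553). Acaca, the carboxylase that commits acetyl-CoA to fatty acid synthesis, had 614.7 and 977.5 with olive oil, against 141.4 and 449.0 with chow (log2 fold change 1.61, limma adjusted p = 0.389). Fasn, which builds the chain, had 1386.1 and 3788.4 with olive oil, against 105.8 and 1096.8 with chow (log2 fold change 2.73, limma adjusted p = 0.574). In each of these 3 genes the groups did not overlap, and the second array read higher than the first in both diets.

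Elovl6, which lengthens palmitate, had 124.2 and 499.1 with olive oil, against 20.1 and 82.9 with chow (log2 fold change 2.50, limma adjusted p = 0.328). Me1, malic enzyme, which supplies NADPH, had 525.4 and 1217.2 with olive oil, against 120.0 and 316.7 with chow (log2 fold change 2.02, limma adjusted p = 0.282). In both genes the groups did not overlap. Scd, the desaturase that makes oleate from stearate, had 7077.8 and 6927.8 with olive oil, against 547.5 and 5610.4 with chow (log2 fold change 1.99, SE 0.82, limma adjusted p = 0.556). The 2 olive oil arrays agreed closely for Scd, and the second chow array was much nearer to them than to the first chow array. Pnpla3, a lipid droplet protein whose gene is a target of Srebf1, had 373.4 and 2093.2 with olive oil, against 1.4 and 35.1 with chow. Its first chow array was below background and its second was not. Another probe set of Pnpla3, the one with its smallest p, had 479.9 and 1767.4 with olive oil, against 11.2 and 49.0 with chow (log2 fold change 5.08, SE 1.02, limma adjusted p = 0.153).

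**Figure D3:**
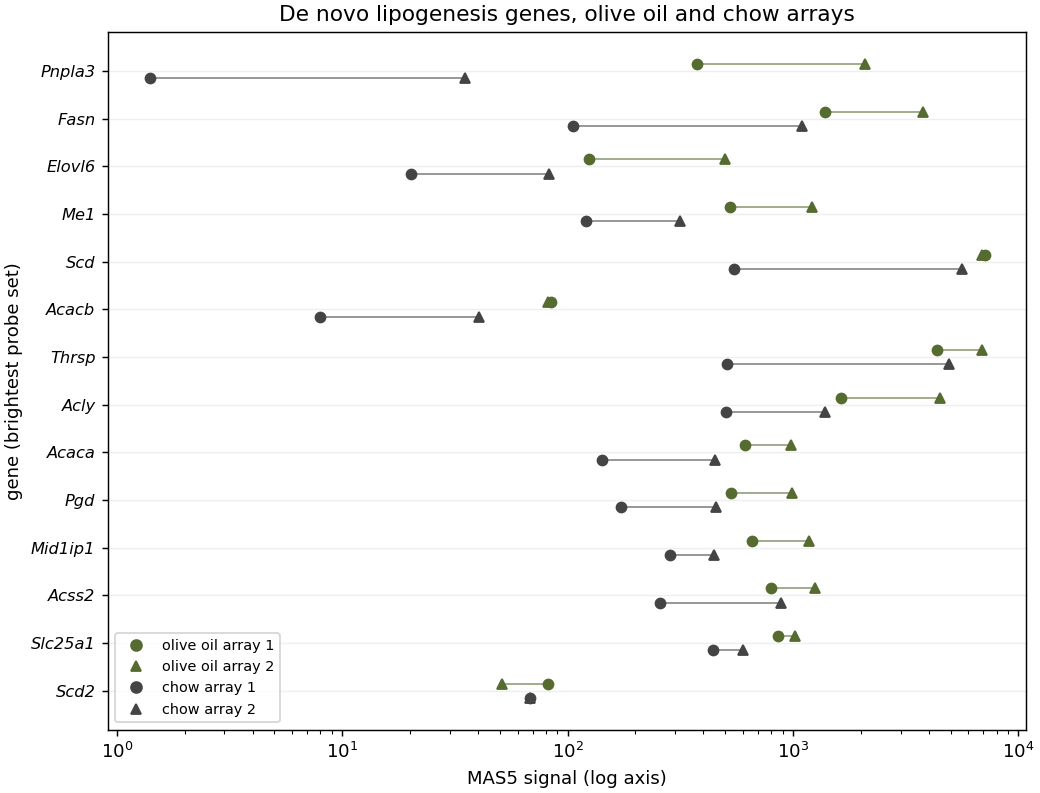
MAS5 signal (log x axis) of the 14 de novo lipogenesis genes on the olive oil arrays (green) and the chow arrays (grey), ordered by log2 fold change; circles and triangles are the first and second array, joined by a line. The first chow array lay far below the second for Scd (547.5 and 5610.4) and Fasn (105.8 and 1096.8), and Scd2 alone had a fold change below 0.

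Thrsp and Scd2 were the exceptions to the separation that the other genes showed, together with Acss2. Thrsp, a nuclear protein that accompanies lipogenesis, had 4342.1 and 6886.0 with olive oil, against 508.3 and 4907.8 with chow. Acss2, which makes acetyl-CoA from acetate, had 795.0 and 1257.3 with olive oil, against 256.6 and 888.9 with chow. Scd2, a second desaturase gene, had 81.6 and 51.2 with olive oil, against 67.9 and 68.2 with chow. In these 3 genes the 2 diets overlapped.

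The 2 chow arrays differed widely in these genes, and the size of the lipogenic values rests on which of them is used. Without the first chow array the list's median was 0.87, with 4 genes at an unadjusted p under 0.05. Without the second it was 2.57, with 13 genes. Without the second olive oil array the median was 1.34, with 5 genes, and without the first it was 1.97, with 11. The direction was the same in each case, with 13 or 14 genes above 0. Genes outside the pathway also set the chow arrays apart: Igfbp1, a binding protein that insulin lowers, had 260.5 and 89.4 on the olive oil arrays, against 1359.3 on the first and 146.0 on the second chow array. The part of that difference in the result was not tested.

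**Figure D4:**
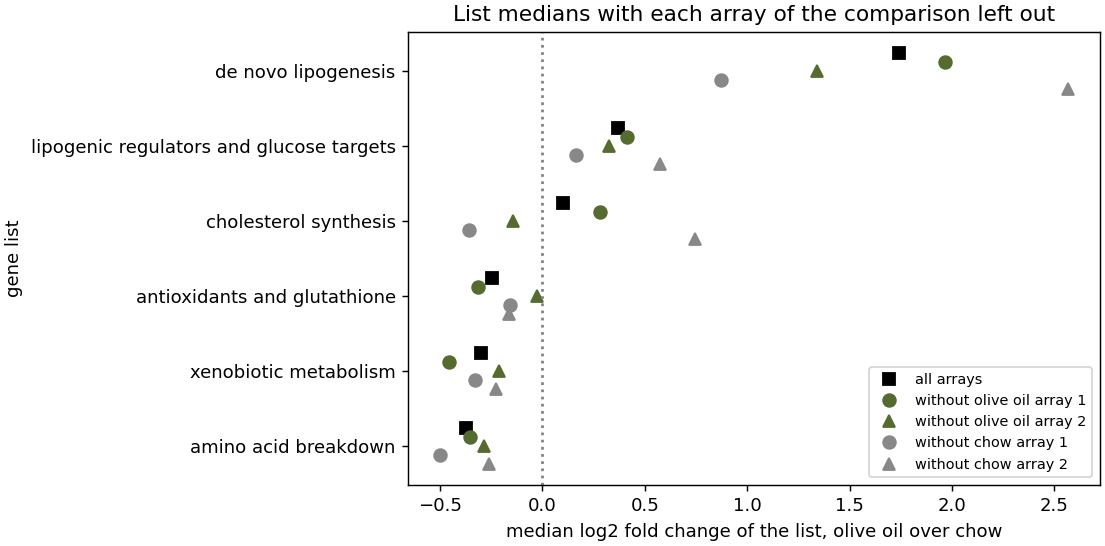
Median log2 fold change of olive oil over chow (x axis) for 6 gene lists (rows), with all arrays (black squares) and with 1 of the 4 arrays left out (green for olive oil, grey for chow; circles for the first array, triangles for the second). De novo lipogenesis ran from 0.87 to 2.57, and cholesterol synthesis from -0.36 to 0.75, on both sides of 0.

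The regulators of lipogenesis and the genes that follow glucose had a median of 0.37. Of 11 genes, 7 were above 0, and 4 were higher and 1 lower at an unadjusted p under 0.05. Against the same chow arrays the median was -0.02 with lard, 0.006 with coconut fat and -0.13 with fish oil. Srebf1 had 1440.8 and 1959.0 with olive oil, against 206.3 and 847.6 with chow (log2 fold change 2.00, limma adjusted p = 0.352). It was not particular to olive oil: the coconut fat arrays, at 1836.1 and 1854.2, lay between the olive oil arrays, and lard read 1263.6 and 1162.2. Over the mean of lard and coconut fat, the log2 fold change of Srebf1 with olive oil was 0.17 (limma adjusted p = 0.984). Pklr, liver pyruvate kinase and a target of Mlxipl, had 481.7 and 934.6 with olive oil, against 89.1 and 328.1 with chow on the probe set with its smallest p (log2 fold change 1.95, limma adjusted p = 0.339). The brighter probe set of Pklr had 1056.0 and 1940.9 with olive oil, against 302.8 and 903.4 with chow (log2 fold change 1.45, limma adjusted p = 0.508). Mlxipl itself had 122.5 and 188.0 with olive oil, against 80.9 and 90.9 with chow (log2 fold change 0.80, limma adjusted p = 0.453). The olive oil and chow arrays did not overlap in these 3 genes. Slc2a2, the glucose transporter of hepatocytes, had 3252.1 and 2683.7 with olive oil, against 2856.3 and 2805.9 with chow, and the groups overlapped. Without the first chow array the median of this list was 0.16, with 0 genes at an unadjusted p under 0.05.

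RefSeq promoters, 250 bases before to 50 after the start of transcription in build GRCr8, were found for 11 of the lipogenesis genes, and 3 motifs tied to the regulators above were searched on both strands. The sterol element core TCACNCCAC was in 0 of the 11 and in 1.12% of all 33469 rat promoters of that length. The E-box CACGTG was in 0 of the 11 and in 6.42% of all promoters. The CCAAT box was in 8 of the 11 (72.7%) and in 37.5% of all promoters, and in 11 of 14 promoters of the cholesterol synthesis genes (78.6%). These matches describe letters in a short window and show no binding. The promoters of 4 genes are printed 5' to 3' on the strand of the gene, Acly, Pnpla3 and Acacb as genes whose signals lay higher on both olive oil arrays than on both chow arrays and whose promoters hold the box, and Me1 as one with the same pattern of signals and none of the 3 motifs in this window. The capitals mark the CCAAT box, which reads ATTGG where it lies on the opposite strand.
Acly, GRCr8 chr10:85963582-85963881, minus strand: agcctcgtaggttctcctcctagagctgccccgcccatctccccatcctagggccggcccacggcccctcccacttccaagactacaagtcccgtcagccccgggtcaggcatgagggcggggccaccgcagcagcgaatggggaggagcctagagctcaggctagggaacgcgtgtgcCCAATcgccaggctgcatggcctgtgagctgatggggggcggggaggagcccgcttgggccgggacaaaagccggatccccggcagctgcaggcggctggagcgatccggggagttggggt
Pnpla3, GRCr8 chr7:117173278-117173577, plus strand: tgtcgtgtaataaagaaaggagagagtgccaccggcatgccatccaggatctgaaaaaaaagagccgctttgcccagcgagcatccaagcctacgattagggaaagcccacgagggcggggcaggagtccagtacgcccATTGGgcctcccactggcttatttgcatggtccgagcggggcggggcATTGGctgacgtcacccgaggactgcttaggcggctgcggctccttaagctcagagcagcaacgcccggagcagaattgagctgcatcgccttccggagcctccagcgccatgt
Acacb, GRCr8 chr12:48138165-48138464, minus strand: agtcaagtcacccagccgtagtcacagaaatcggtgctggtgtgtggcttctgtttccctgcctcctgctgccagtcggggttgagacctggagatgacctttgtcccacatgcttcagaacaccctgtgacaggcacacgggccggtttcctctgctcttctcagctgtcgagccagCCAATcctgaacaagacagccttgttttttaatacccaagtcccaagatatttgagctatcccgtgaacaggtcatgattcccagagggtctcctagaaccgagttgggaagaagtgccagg
Me1, GRCr8 chr8:96540195-96540494, minus strand: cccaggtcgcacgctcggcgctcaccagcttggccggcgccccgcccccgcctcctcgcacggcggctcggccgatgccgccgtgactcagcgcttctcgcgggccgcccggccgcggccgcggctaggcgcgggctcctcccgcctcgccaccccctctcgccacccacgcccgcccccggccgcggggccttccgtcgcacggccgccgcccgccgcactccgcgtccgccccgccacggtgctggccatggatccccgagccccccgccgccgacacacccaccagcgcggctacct

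Cholesterol synthesis is the other branch under Srebf transcription factors. Of its 17 genes, 10 were above 0 and 7 below, 1 was higher and 1 lower at an unadjusted p under 0.05, and the median was 0.10. Fdps, which makes farnesyl pyrophosphate, had 1237.6 and 2444.5 with olive oil, against 595.7 and 1824.4 with chow, and the groups overlapped. Tm7sf2, a sterol reductase, had 727.3 and 232.5 with olive oil, against 886.4 and 1285.3 with chow (log2 fold change -1.37, limma adjusted p = 0.389). Without the first chow array the median was -0.36, and without the second it was 0.75, so its direction turned with the array.

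Of 23 genes of amino acid breakdown, 18 were below 0 and 10 were lower with olive oil at an unadjusted p under 0.05, while 1 was higher. The median was -0.38. It was also below 0 with the other fats against the same chow arrays, at -0.27 with lard, -0.18 with coconut fat and -0.28 with fish oil. Gpt and Sds, described above, were the members that passed the adjusted test. The others with low values act on several amino acids. Got1, cytosolic aspartate aminotransferase, had 398.8 and 566.2 with olive oil, against 1429.3 and 1287.7 with chow (log2 fold change -1.51, limma adjusted p = 0.0526), and the lard, coconut fat and fish oil arrays, from 350.0 to 572.5, lay with the olive oil arrays. Hal, which opens histidine breakdown, had 735.8 and 810.1 with olive oil, against 1768.8 and 1364.5 with chow (log2 fold change -1.01). Gls2, the liver glutaminase, had 1119.3 and 1108.3 with olive oil, against 2041.8 and 2150.7 with chow (log2 fold change -0.91). The groups of these 3 genes did not overlap.

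Aass, which begins lysine breakdown, had 2033.5 and 2170.9 with olive oil, against 3361.0 and 3356.1 with chow (log2 fold change -0.68), and Prodh, proline dehydrogenase, had 509.6 and 465.5 with olive oil, against 746.2 and 865.9 with chow (log2 fold change -0.72). The single gene higher was Bckdk, a kinase that switches off the breakdown of branched-chain amino acids, with 258.8 and 297.2 with olive oil, against 138.5 and 132.1 with chow (log2 fold change 1.02, limma adjusted p = 0.102). Bckdhb, a subunit of the enzyme that Bckdk inhibits, had 727.4 and 433.7 with olive oil, against 927.4 and 1224.7 with chow (log2 fold change -0.92). None of these 4 genes overlapped between the diets. Tat and Tdo2, which open the breakdown of tyrosine and tryptophan, had log2 fold changes of -0.20 and -0.12. Leaving out any of the 4 arrays kept the median of the list between -0.50 and -0.26, with 8 to 12 genes lower.

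**Figure D5:**
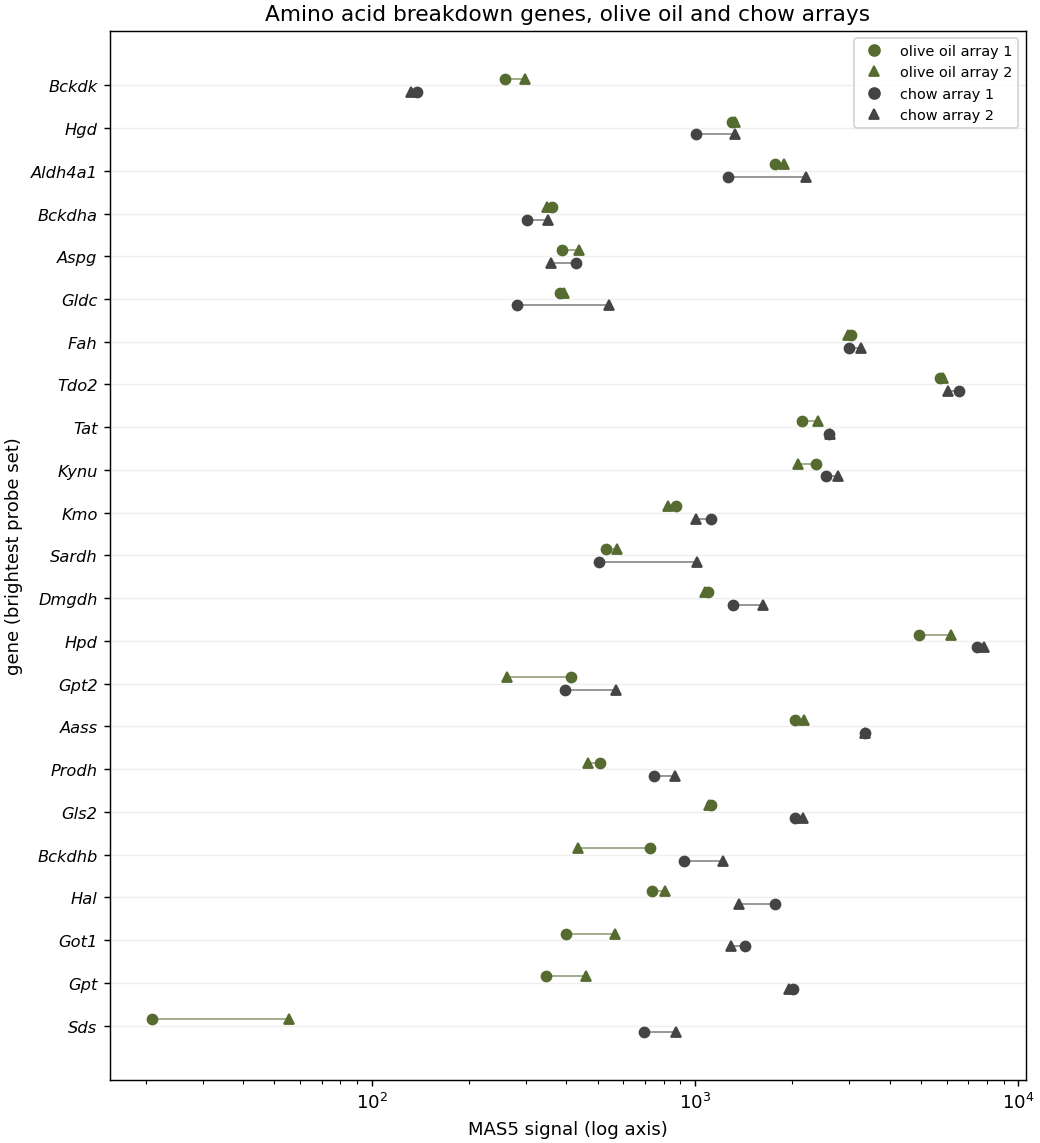
MAS5 signal (log x axis) of the 23 amino acid breakdown genes on the olive oil arrays (green) and the chow arrays (grey), ordered by log2 fold change; circles and triangles are the first and second array, joined by a line. Sds, Gpt and Got1 lay lowest with olive oil relative to chow, and Bckdk was higher on both olive oil arrays (258.8 and 297.2) than on both chow arrays (138.5 and 132.1).

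Of 10 genes of the urea cycle, which disposes of the freed nitrogen, 8 were below 0 and 2 were lower at an unadjusted p under 0.05, with a median of -0.12. The median against the same chow arrays was lower with lard (-0.21) and fish oil (-0.25), and -0.06 with coconut fat. Slc25a15, which carries ornithine into mitochondria, had 887.0 and 1036.3 with olive oil, against 1538.0 and 1683.3 with chow (log2 fold change -0.75, limma adjusted p = 0.153). On the remaining 4 probe sets of Slc25a15 the log2 fold change ran from -0.79 to -0.23. Asl, which releases arginine, had 770.2 and 580.7 with olive oil, against 1884.0 and 1249.6 with chow (log2 fold change -1.19, limma adjusted p = 0.264), and its dimmer probe set gave -1.16. Pck1, which feeds carbon into glucose synthesis, had 7441.8 and 5939.8 with olive oil, against 7190.7 and 6897.3 with chow, and the groups overlapped. The 13 genes of gluconeogenesis and glycogen had a median of 0.13, with 0 higher and 1 lower at an unadjusted p under 0.05.

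Of 20 genes of xenobiotic metabolism, 16 were below 0, 8 were lower and 1 was higher at an unadjusted p under 0.05, and the median was -0.30. Against the same chow arrays it was -0.24 with lard, -0.02 with coconut fat and 0.11 with fish oil. Beside Cyp3a9, the P450 genes Cyp3a18, Cyp3a2 and Cyp2e1 were among the 8. Members of the Cyp3a family are similar in sequence, so their probe sets may share signal. Cyp3a2 had 3338.2 and 3416.7 with olive oil, against 6187.2 and 5402.8 with chow (log2 fold change -0.78). Nr1i3, the receptor CAR that drives many of these genes, had 74.3 and 65.3 with olive oil, against 294.2 and 131.4 with chow (log2 fold change -1.46), and both olive oil arrays lay below all 8 others. Por, the reductase that supplies P450s with electrons, had 396.8 and 283.9 with olive oil, against 992.9 and 430.7 with chow (log2 fold change -0.96). The first chow array was the higher of the 2 for both Nr1i3 and Por. Cyp2c11 and Cyp2c13, male-specific P450s of rat liver, had log2 fold changes of -0.08 and -0.15. Aldh1a1, which oxidises retinal, was the member higher, with 1111.8 and 599.5 with olive oil, against 290.5 and 454.9 with chow (log2 fold change 1.16).

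Of 23 antioxidant and glutathione genes, 19 were below 0, 5 were lower and 0 higher at an unadjusted p under 0.05, and the median was -0.25. Against the same chow arrays the median was -0.26 with lard, -0.02 with coconut fat and 0.22 with fish oil. With olive oil against the mean of lard and coconut fat it was -0.04. Gstm2, a glutathione transferase, had 2380.4 and 651.3 with olive oil, against 3289.2 and 3283.7 with chow (log2 fold change -1.40, limma adjusted p = 0.385). Mt2A, a metallothionein, had 498.3 and 177.5 with olive oil, against 804.6 and 711.9 with chow (log2 fold change -1.34, limma adjusted p = 0.334). In both genes the second olive oil array was the lower one, and without it the median of the list was -0.03. Gpx4, which removes lipid peroxides, had 2092.5 and 2274.0 with olive oil, against 2870.2 and 2781.3 with chow, and both olive oil arrays lay below all 8 others (log2 fold change -0.37). The abundant enzymes Cat, Gpx1 and Sod1 had log2 fold changes of 0.07, 0.03 and 0.21.

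Fatty acids are oxidised in mitochondria and in peroxisomes. Of 20 mitochondrial genes, 7 were above 0, 3 were lower and 0 higher at an unadjusted p under 0.05, and the median was -0.05. Cpt2, which reforms acyl-CoA inside mitochondria, had 486.9 and 462.0 with olive oil, against 913.8 and 699.3 with chow (log2 fold change -0.75, limma adjusted p = 0.153). Cpt1a, the entry step, had 2615.2 and 2244.6 with olive oil, against 2005.9 and 2019.1 with chow (log2 fold change 0.27, limma adjusted p = 0.823). Of 19 peroxisomal genes, 13 were below 0, 5 were lower and 0 higher at an unadjusted p under 0.05, and the median was -0.27. Hacl1, which splits branched and hydroxy fatty acids, had 918.3 and 1180.4 with olive oil, against 2457.4 and 2453.8 with chow (log2 fold change -1.24, limma adjusted p = 0.141). For Hacl1, Ehhadh, Eci2 and Decr2, both olive oil arrays lay below all 8 others, which held for 2.79% of all genes.

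Among the other targets of the fatty acid receptor PPAR-alpha, 4 of 17 were higher and 2 lower at an unadjusted p under 0.05. Cd36, which takes fatty acids into cells, had 609.6 and 369.1 with olive oil, against 119.7 and 204.8 with chow (log2 fold change 1.58, limma adjusted p = 0.328). Pdk4, which spares pyruvate from oxidation, had 1152.7 and 1386.1 with olive oil, against 614.3 and 668.1 with chow (log2 fold change 0.98, limma adjusted p = 0.324). Cyp4a3, a fatty acid hydroxylase, had 2628.8 and 2542.8 with olive oil, against 3983.8 and 3940.1 with chow (log2 fold change -0.62). None of these 3 genes overlapped between olive oil and chow, and the fish oil arrays read higher than both diets for Cd36, at 912.5 and 952.6. Plin2, which coats lipid droplets, had 2716.0 and 3072.6 with olive oil, against 2112.6 and 2452.5 with chow (log2 fold change 0.34, limma adjusted p = 0.625). Of 19 genes of lipid droplets and lipases, 4 were higher and 1 lower at an unadjusted p under 0.05. The lower one, Ces1d, a carboxylesterase that acts on stored fat, had 725.5 and 827.6 with olive oil, against 3251.3 and 1759.0 with chow (log2 fold change -1.62, limma adjusted p = 0.324).

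Of 22 acute phase and cytokine genes, 4 were higher and 2 lower at an unadjusted p under 0.05, and Stat3, the factor that carries interleukin-6 signals, had 515.1 and 463.8 with olive oil, against 214.4 and 232.6 with chow (log2 fold change 1.12, limma adjusted p = 0.186). A second probe set of Stat3 had 233.7 and 162.9 with olive oil, against 115.9 and 172.6 with chow, and the groups overlapped there (log2 fold change 0.46). Of 12 genes of fatty acid uptake and binding, 4 were higher and 0 lower: Acsl5, which activates fatty acids, had 2004.4 and 2364.0 with olive oil, against 718.4 and 1549.1 with chow (log2 fold change 1.04, limma adjusted p = 0.409). Of 12 immediate early genes, 3 were higher and 2 lower, and Jun, a subunit of the transcription factor AP-1, had 337.5 and 295.2 with olive oil, against 155.8 and 164.3 with chow (log2 fold change 0.97, limma adjusted p = 0.586). Of 12 periportal hepatocyte genes, 2 were higher and 3 lower, and the 3 were Sds, Hal and Gls2, described above. Oxidative phosphorylation and the cell cycle each had 0 genes in either direction, of 20 and 12 tested. The 15 apolipoprotein and lipoprotein assembly genes had 0 in either direction with a median of 0.15, and Apoa4 had 6180.4 and 4841.2 with olive oil, against 4772.8 and 5122.0 with chow. Among the 11 marker lists of liver and blood cell types, the counts at an unadjusted p under 0.05 were 1 higher, Reln of the stellate cells, and 1 lower, Eng of the endothelium, which had log2 fold changes of 0.45 and -0.45.

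Against the mean of the lard and coconut fat diets, which hold the same share of energy as fat, the comparison holds the amount of fat fixed and asks about its type. Here 2 of the 18625 probe sets passed limma's test (0.0107%), and both were lower with olive oil: Gpt, with a log2 fold change of -1.39 (SE 0.16), and Plcb3, not above background with olive oil, with a bound of at least 4.37-fold lower, at a limma adjusted p of 0.0293 each. For Gpt the olive oil arrays read 346.3 and 459.4, against 812.9 and 847.3 with lard and 1326.1 and 1326.5 with coconut fat. For Plcb3 they read 9.2 and 11.3, against 58.1 and 66.1 with lard and 58.8 and 85.7 with coconut fat. Neither gene's olive oil arrays overlapped the others. With any 1 of the lard, coconut fat or chow arrays left out, limma's test passed 0 probe sets, with 1038 to 1247 at an unadjusted p under 0.05. Without the first olive oil array 4 passed, neither Gpt nor Plcb3 among them, and without the second 13 passed, both of them included.

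Of the 10470 genes, 2.55% were higher and 3.74% lower than with lard and coconut fat at an unadjusted p under 0.05. In de novo lipogenesis 7 of 14 genes were higher and 0 lower, all 14 lay above 0, and the median was 1.03. These fold changes do not use the chow values, but their p-values take the spread from all 10 arrays, chow included, and the same 2 olive oil arrays serve in both comparisons. Acaca had 285.9 and 303.7 with lard and 541.4 and 378.1 with coconut fat (log2 fold change of olive oil over their mean 1.08, limma adjusted p = 0.764). Scd had 5183.8 and 3915.2 with lard and 6487.2 and 4893.2 with coconut fat (log2 fold change 0.47, limma adjusted p = 0.95). Unlike these 2 genes, Fasn overlapped, with 1841.8 on the first coconut fat array against 1386.1 on the first olive oil array. The list's summed signal was 25461 and 46245 with olive oil, against 17627 and 15455 with lard and 29873 and 17563 with coconut fat. The second olive oil array thus read highest, and the first coconut fat array lay above the first olive oil array. In amino acid breakdown 1 of 23 genes was higher and 6 were lower, with a median of -0.17. In xenobiotic metabolism 0 of 20 were higher and 5 lower, with a median of -0.21, and in peroxisomal oxidation 0 of 19 were higher and 5 lower, with a median of -0.25. Nr1i3 had a log2 fold change of -1.82 against lard and coconut fat, where those 4 arrays read from 207.7 to 393.8.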

How the data were processed

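Liver RNA was measured on Affymetrix Rat 230 2.0 arrays, 2 for each of 5 diets. The authors deposited 1 linear MAS5 intensity per probe set and array; MAS5 is named, without a version, in the submitters' processing notes. Neither scans nor detection calls were used. Of 31099 probe sets, 57 controls were removed. Symbols came from the platform annotation (20826 probe sets with 1 symbol, 436 with several, 9780 with none; 20758 gene identifiers were in the RefSeq table, and 0 symbols changed).

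Signals became log2(signal + 3.1), where 3.1 is the 10th percentile. The 40% with the lowest mean log2 value (12417) were left out and 18625 tested. The design did not fix whether the mean of the signals or of the log2 values ranks dim probe sets; both were run and the second was then made the main setting. The model, limma 3.58.1 under R 4.3.3, gave every diet a mean and used all 10 arrays; its variances followed an intensity trend (residual degrees of freedom 5, prior 5.96), with Benjamini-Hochberg adjustment at 0.05. Unadjusted p-values are from the same fit. A fold change is on the log2(signal + 3.1) scale and understates changes of dim genes. Where both arrays of a diet lay at or below 12.8, a bound was given from the mean log2 values with the dim arrays at 12.8.

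Named genes were those that passed without overlap, then the smallest p among brighter genes without overlap, up to 4 members of each list, and a set of well-known liver genes; further list members are named for their role in a pathway, after their values were seen. The members and the 41 lists (574 of 636 names were in the annotation; the others were not analysed here) were chosen with earlier results of these data known. Lists are described on each gene's brightest probe set with no test. Same-numbered arrays of different diets had deviations that correlated between -0.03 and 0.08, so the numbers were not taken as pairs. On simulated data with 18625 probe sets, the olive oil against chow test found 22 of 100 probe sets moved by a log2 of 1 and 71 of 100 moved by 2, with 5 false calls. Alternatives were other scalings, offsets, dim filters, variance models, array sets and thresholds, and each array left out. Arrays give no counts; their number limits the precision.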

Additional observations from a re-analysis of the deposited data

How the results depend on the processing

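The count of 5 probe sets between olive oil and chow stayed at 5 or 6 when arrays were quantile normalized or set to 1 common 75th percentile, and when the offset was the 25th percentile or a floor took its place; all 5 remained in each. It was 11 without a dim filter, 16 with 60% left out, 15 with the filter on mean signal (an alternative named after its result was seen; the main filter was settled after both had been run), 21 at an adjusted p of 0.10, and 0 without an intensity trend, where 1449 had an unadjusted p under 0.05. With only the olive oil and chow arrays in the fit it was 7, of which 3 were among the 5. Leaving out 1 array gave 3 to 23: 11 and 9 without the first and second coconut fat array, 10 without either fish oil array, 4 and 19 when the first or second olive oil array was dropped, 3 when the first chow array was, and 23 when the second was. Against lard and coconut fat, the count of 2 was 0 without an intensity trend (1165 at an unadjusted p under 0.05) and 1 with the replicate number as a block; leaving out 1 array gave 0 to 13. With the replicate block, the olive oil against chow count was 6. Of the named genes' fold changes under all alternatives, 12 turned their direction, each without 1 array and none in a gene that passed. With 1 array left out at a time, Alas2 lay between -0.33 and 1.59, S100a9 between -0.43 and 1.17 and Apoa4 between -0.030 and 0.32, each below 0 without the first olive oil array. Slc4a1 lay between -1.31 and 0.33, Pck1 between -0.25 and 0.080, both above 0 without the second olive oil array, and Cela1 between -0.70 and 1.23, below 0 without the second chow array and, at -0.26, without the second olive oil array. Without the first chow array Fads1 (-0.034 to 2.83), Ms4a1 (-0.29 to 1.87) and Gzmb (-0.065 to 0.92) were below 0, and Igfbp1 (-3.13 to 0.067) and Cyp7a1 (-0.49 to 0.044) above it. With 1 array left in a diet, its spread was assumed to be that of the other diets. The cause of these shifts was not tested, and signals near 12.8 carry little order.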

Other observations

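Ugt2b, a glucuronosyltransferase that conjugates steroids and drugs, had one probe set with 12.8 and 7.4 on the olive oil arrays, against 975.1 and 613.9 on the chow arrays. The lard arrays read 4.9 and 7.2 and the coconut fat arrays 3.7 and 5.8, all at or below background, while the fish oil arrays read 13.1 and 471.9. The bound between olive oil and chow was at least 48.9-fold lower, yet the limma adjusted p was 0.141. A second Ugt2b probe set lay above background on each array, with 38.9 and 19.9 with olive oil, against 6093.0 and 5308.7 with chow (log2 fold change -7.52, SE 1.84, limma adjusted p = 0.281). On it the lard arrays read 31.2 and 43.7, the coconut fat arrays 27.2 and 68.0, and the fish oil arrays 13.1 and 5644.6, so the 2 fish oil arrays lay far apart on both probe sets.

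Inmt, which methylates indole amines, had 219.7 and 172.4 with olive oil, against 2578.9 and 905.0 with chow (log2 fold change -2.95, limma adjusted p = 0.0637). Ddhd1, a phospholipase, had 453.3 and 780.1 with olive oil, against 65.7 and 180.7 with chow (log2 fold change 2.41, limma adjusted p = 0.141). Fas, a death receptor, had 134.9 and 116.3 with olive oil, against 31.8 and 59.0 with chow (log2 fold change 1.46, limma adjusted p = 0.141). In Inmt both olive oil arrays lay below all 8 others, and in Ddhd1 and Fas both lay above.

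Abcg5, a sterol exporter, had 26.2 and 6.2 with olive oil, against 320.5 and 20.3 with chow. Its first chow array was far above the second, whereas in Scd and Fasn the first chow array was far below the second.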
